A study of Homo sapiens with 9 samples.

Results

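The Toll-like receptor genes and the RP105 complex were followed in 9 RNA-seq libraries of BJAB, an established human B-cell line labelled as a Burkitt lymphoma. The 10 members were TLR1, TLR2, TLR4, TLR6, TLR7, TLR8, TLR9 and TLR10, with CD180, which encodes RP105, and LY86, which encodes its partner MD-1. They were taken by gene symbol from the 57500 Ensembl genes counted in every library. Earlier results of these data were known when they were chosen. All 10 were present in all 9 count tables. The groups were 3 libraries of the parental line (control), 3 of cells carrying the long isoform of the receptor TACI (TACI long) and 3 of cells carrying the short isoform (TACI short), and the cells of every group were untreated. The sample titles describe stable transfection and the series text transduction, and the promoter of the transgene and the clonality of the lines are not given in the sources used here. RNA came from sorted cells, and the labels do not name the gate. Nothing states that the replicates were separate cultures, so the p-values reflect the variation among these libraries, and that variation may be technical.

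Toll-like receptors are membrane proteins with leucine-rich repeats that bind microbial molecules and signal through a cytoplasmic TIR domain, in most cases by way of the adaptor MyD88. TLR1, TLR2, TLR4, TLR6 and TLR10 are cell-surface receptors, and TLR7, TLR8 and TLR9 read nucleic acids in endosomes. RP105 resembles TLR4 outside the cell but lacks a TIR domain, and it pairs with MD-1 as TLR4 pairs with MD-2. On B cells RP105 is known for driving proliferation and survival when it is crosslinked.

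Library totals ranged from 40322136 to 50079203 counts, and each level below in CPM is a count as a share of that total, on the usual scale of counts-per-million. TNFRSF13B, the gene of TACI, stood between 14.6 and 28.8 CPM in control, 691 and 738 in TACI long, and 2655 and 2965 in TACI short. Isoform and amount of transgene RNA therefore differ together between the lines, and a count over the whole gene does not separate them. B-lineage identity was plain in every library: 8 markers of the B lineage summed to between 3064 and 3911 CPM. TACI short replicates 2 and 3 stood apart from replicate 1. They had at least 1 count for 32882 and 32209 genes, against 24307 to 25938 in the other 7 libraries. They also held more myeloid transcripts, with 18 myeloid markers summing to 134 and 131 CPM, against 31.8 in replicate 1 and 16.4 to 31.3 in control and TACI long. TACI short replicate 1 is for that reason shown on its own for each member. For other genes TACI short is in places given as the range of its 3 libraries.

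Of the 10 members, 9 had enough counts to be tested; TLR8 did not. With the long isoform LY86, TLR10, TLR7 and TLR9 rose and CD180 and TLR1 fell, while TLR2, TLR4 and TLR6 did not pass the test. That makes 4 higher, where 25.2% of all 16672 tested genes were called higher, and 2 lower, where 25.9% were. Calls are at an adjusted p under 0.05 in the quasi-likelihood test of edgeR with Benjamini-Hochberg adjustment over all tested genes. In either direction 51.1% of tested genes were called, against 6 of the 9 members.

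With the short isoform TLR4 and TLR7 rose and CD180, LY86, TLR10 and TLR1 fell, each of them against control, while TLR2, TLR6 and TLR9 did not pass. These were 2 higher, with 31.5% of tested genes called higher, and 4 lower, with 31.1% called lower. Calls in either direction covered 62.6% of tested genes and 6 of the 9 members. Between the 2 lines, TACI short was above TACI long in CD180 and TLR4 and below it in LY86, TLR10, TLR9 and TLR1, and TLR2, TLR6 and TLR7 did not pass. Here 35.2% of tested genes were called higher, 33.6% lower and 68.8% in either direction. The split of all tested genes depended on the scaling in the comparisons with TACI short. For short against control it was 5256 higher and 5179 lower with TMM factors, 6320 and 4330 with upper-quartile factors, and 6873 and 3771 with column totals alone. For short against long it was 5870 and 5604, 6820 and 4770, and 7216 and 4345. The share of members called was thus close to that of tested genes at large in each of the 3 comparisons, and the comparisons share libraries. The median log2 fold change of the 9 members was 0.12 with the long isoform, -0.51 with the short isoform and -0.16 for short against long, where the medians over all tested genes were -0.0029, 0.026 and 0.046. With replicate 1 alone as TACI short, the calls of CD180 (-0.69), LY86 (-0.51), TLR10 (-0.68), TLR1 (-0.82), TLR4 (0.27) and TLR7 (0.81) against control were still made, with log2 fold changes in brackets. In that fit the lone TACI short library has no spread of its own and is assumed to vary like the other groups.

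**Figure D1:**
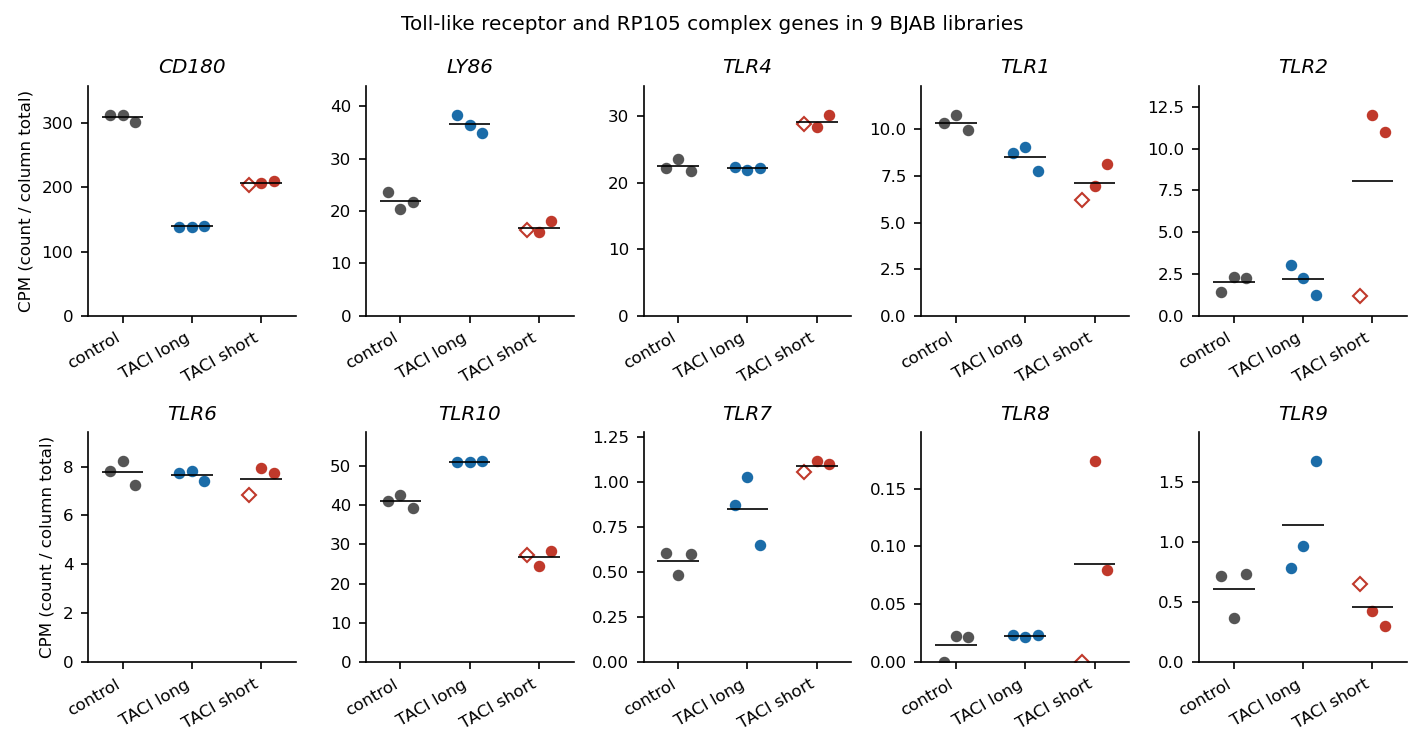
CPM of the 10 members in each library (points) with the group mean (line), in control (grey), TACI long (blue) and TACI short (red), each panel on its own linear axis from 0. The open diamond is TACI short replicate 1. CD180 is lowest in TACI long, LY86 and TLR10 are highest there, and the TLR2 points of TACI short lie at 1.19, 12.0 and 11.0 CPM.

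To set the genes side by side their levels were also divided by counted exon length (RPKM, CPM per kilobase of exon). In control the order of the group means was CD180 at 54.6 RPKM, LY86 at 17.5, TLR10 at 9.72, TLR4 at 4.28, TLR1 at 2.28, TLR6 at 1.29, TLR2 at 0.477, TLR9 at 0.156, TLR7 at 0.108 and TLR8 at 0.0034. Only TLR9 and TLR7 had overlapping library values among the neighbours of that order in control. CD180, LY86 and TLR10 thus led, and TLR7 and TLR8 were at the foot. The place of TLR9 depends on its counted length, most of which is shared with another gene: over its unshared bases alone it would have 1.14 RPKM in control, above TLR2, and 2.15 in TACI long, above TLR1. In TACI long LY86 came first at 29.2 RPKM and CD180 second at 24.6, without overlap between their libraries, and the ranges of TLR2 and TLR9 overlapped. In TACI short CD180 at 36.5 RPKM led LY86 at 13.4 again. TLR2 reached 1.92 RPKM there with libraries from 0.284 to 2.86, a range that overlaps that of TLR1.

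CD180 and LY86, whose proteins form one receptor complex, moved in opposite directions with the long isoform and in the same direction with the short isoform. CD180 (ENSG00000134061, hg38 chromosome 5, 67179613 to 67196799, minus strand) had 313, 314 and 302 CPM in the control libraries, 139, 139 and 140.1 in TACI long, and 204 in TACI short replicate 1, with 207 and 209 in replicates 2 and 3. The 3 groups did not overlap. The group means were 309.6 ± 6.80, 139 ± 0.751 and 207 ± 2.72 CPM (SD, n = 3). CD180 was 2.22-fold lower in TACI long than in control, at a log2 fold change of -1.15 ± 0.04 (SE) and an adjusted p of 8.5e-17 in edgeR. It was 1.64-fold lower in TACI short, at -0.71 ± 0.04 and an adjusted p of 3.77e-13 in edgeR. The drop was deeper with the long isoform: short against long differed by 0.44 ± 0.04, at an adjusted p of 1.13e-09 in the same edgeR fit. In bulk RNA fewer cells with a transcript and less of it per cell cannot be told apart.

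LY86 (ENSG00000112799, hg38 chromosome 6, 6588108 to 6654983, plus strand) had 23.7, 20.4 and 21.7 CPM in control, 38.4, 36.4 and 35.0 in TACI long, and 16.4 in TACI short replicate 1 with 16.0 and 18.1 in replicates 2 and 3. Again no group overlapped another, but the order was another one, with TACI long highest. LY86 rose 1.67-fold with the long isoform, at a log2 fold change of 0.74 ± 0.06 and an adjusted p of 3.93e-09 in edgeR. It fell 1.42-fold with the short isoform, at -0.51 ± 0.07 and an adjusted p of 1.16e-06 in edgeR. The lines differed 2.37-fold from each other, at -1.25 ± 0.07 and an adjusted p of 5.01e-13 in edgeR. An antisense gene, LY86-AS1, lies in the same region and had 261 to 387 counts per library, but it shares no counted exon base with LY86.

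The ratio of partner to receptor within a library summed up these shifts. LY86 over CD180, in RPKM, was 0.341, 0.294 and 0.325 in control, 1.25, 1.18 and 1.13 in TACI long, and 0.364, 0.349 and 0.391 in TACI short. The TACI long libraries stood above the other 6 by a wide margin, while TACI short lay just above control with no overlap. The like ratio for TLR4, that of LY96 (MD-2) over TLR4, was 2.02, 1.91 and 1.76 in control, 1.74, 1.96 and 1.77 in TACI long, and 1.93, 2.23 and 1.83 in TACI short, and these ranges overlapped.

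**Figure D2:**
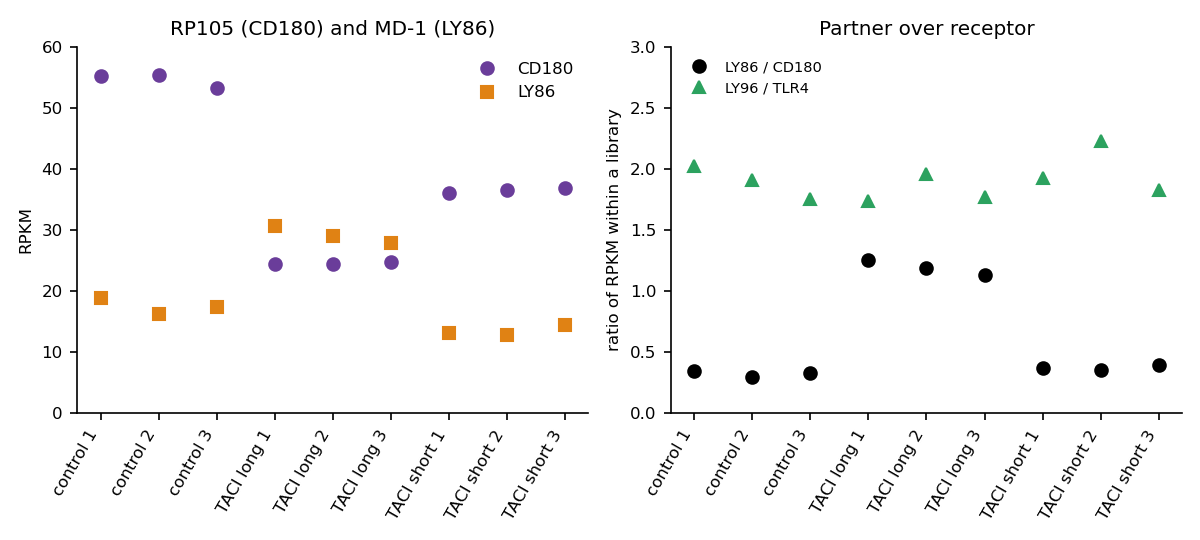
Left, RPKM of CD180 (purple circles) and LY86 (orange squares) in each of the 9 libraries. Right, the ratio within each library of LY86 to CD180 (black circles) and of LY96 to TLR4 (green triangles), both axes linear from 0. LY86 lies above CD180 in the 3 TACI long libraries alone, where the ratio is 1.13 to 1.25 against 0.294 to 0.391 elsewhere.

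The bases before the RefSeq starts of CD180 and LY86 are shown because the RNAs of these partners parted in TACI long. Both are 5′ to 3′ on the gene's strand, from the RefSeq promoter table (build GRCh38.p14, 250 bases before to 50 after the gene start), and stop before the first base of the window that is in an annotated exon of the gene. They cover chr5:67196800-67197049 (minus strand) and chr6:6588470-6588668 (plus strand). RefSeq starts LY86 further downstream than the count tables do, so the LY86 stretch lies within the counted span of the gene but outside its exons.
CD180: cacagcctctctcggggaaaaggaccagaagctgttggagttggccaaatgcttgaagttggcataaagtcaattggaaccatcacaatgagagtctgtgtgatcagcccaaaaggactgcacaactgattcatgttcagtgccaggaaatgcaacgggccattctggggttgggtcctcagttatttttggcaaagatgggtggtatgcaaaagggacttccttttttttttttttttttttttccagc
LY86: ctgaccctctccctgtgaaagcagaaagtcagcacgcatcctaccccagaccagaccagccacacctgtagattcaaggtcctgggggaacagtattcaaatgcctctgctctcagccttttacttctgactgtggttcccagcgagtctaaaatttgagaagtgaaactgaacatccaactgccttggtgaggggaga
The RefSeq table had entries for 7 of the 10 members (TLR2, TLR4, TLR6, TLR8, TLR9, CD180 and LY86), and 5 motifs were searched on both strands of each whole window. They were the octamer ATGCAAAT, read by OCT factors with a B-cell role, an EBF motif, the ETS/PU.1 motif GAGGAAGT, an interferon response motif and an NF-kB motif. Among 35116 promoter windows of that length they occurred in 1.77, 1.21, 2.59, 3.57 and 14% respectively. None of the 5 was in the windows of CD180, LY86, TLR2, TLR6 or TLR8, which says only that these letters are not there. A match is likewise a description of sequence and not of binding.

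TLR4, the receptor for lipopolysaccharide, rose with the short isoform and did not pass with the long isoform. TLR4 (ENSG00000136869, hg38 chromosome 9, 117704332 to 117716871, plus strand) had 22.2, 23.6 and 21.8 CPM in control, 22.4, 21.9 and 22.2 in TACI long, and 28.8 in TACI short replicate 1 with 28.4 and 30.2 in replicates 2 and 3. The TACI short libraries lay above the other 6, and control and TACI long overlapped. The log2 fold change was 0.24 ± 0.05 with the short isoform (adjusted p = 0.000344, edgeR) and 0.27 ± 0.05 for short against long (adjusted p = 0.000119, edgeR). Long against control differed by -0.02 with a 95% interval from -0.13 to 0.09 (adjusted p = 0.789, edgeR).

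LY96, the gene of the TLR4 partner MD-2, had 5.17, 5.21 and 4.42 CPM in control, 4.49, 4.96 and 4.52 in TACI long, and 6.41, 7.32 and 6.37 in TACI short. It was higher in TACI short than in control by 0.31 ± 0.10 on the log2 scale (adjusted p = 0.0119, edgeR) and did not pass with the long isoform (-0.08, adjusted p = 0.557). The LY96 call was lost without control replicate 3 (0.22, adjusted p = 0.122), with replicate 1 alone as TACI short (0.29, adjusted p = 0.0638) and without a filter on low counts (adjusted p = 0.0801). CD14, which hands lipopolysaccharide to TLR4 and is a myeloid marker, followed the split of the TACI short replicates instead. It had 0.413 to 0.544 CPM in control and 0.255 to 0.57 in TACI long, with 0.473 in TACI short replicate 1, against 1.61 and 1.42 in replicates 2 and 3. CD14 passed with the short isoform at 1.08 (adjusted p = 0.0242, edgeR), and with replicate 1 alone as TACI short its value was -0.17 (adjusted p = 0.78). The CD14 call was also lost in limma-voom and in the fits without control replicate 1, 2 or 3 or TACI short replicate 2 or 3 (adjusted p from 0.0527 to 0.107). TLR4 had 28.8 CPM in TACI short replicate 1 and 28.4 and 30.2 in replicates 2 and 3. With replicate 1 alone as TACI short, its log2 fold change against control was 0.27. The part of myeloid transcripts in the TLR4 values was not tested.

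The TLR4 window held the ETS/PU.1 motif at 2 places on the minus strand. Each is shown with 11 bases on both sides and the match in capitals, which reads as the reverse complement of the motif (GRCh38.p14, plus strand, chr9:117704219-117704248 and chr9:117704291-117704320).
TLR4 first match: ttcttcttctaACTTCCTCtcctgtgacaa
TLR4 second match: ttgccgctttcACTTCCTCtcaccctttag

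TLR10, TLR1 and TLR6 lie side by side on chromosome 4 and belong to one subfamily with TLR2, with which TLR1 and TLR6 pair to bind lipopeptides. TLR10 (ENSG00000174123, hg38 chromosome 4, 38772239 to 38782990, minus strand), a receptor found mainly on B cells in humans, had 41.2, 42.5 and 39.3 CPM in control, 51.1, 51.1 and 51.2 in TACI long, and 27.3 in TACI short replicate 1 with 24.5 and 28.4 in replicates 2 and 3. The groups did not overlap, with TACI long highest and TACI short lowest. TLR10 rose by 0.32 ± 0.06 on the log2 scale with the long isoform (adjusted p = 3.62e-05, edgeR) and fell by 0.74 ± 0.06 with the short isoform (adjusted p = 1.09e-10, edgeR). The lines differed by -1.06 ± 0.06 (adjusted p = 1.11e-13, edgeR).

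TLR1 (ENSG00000174125, hg38 chromosome 4, 38790677 to 38856817, minus strand) fell in both lines. Its CPM was 10.3, 10.8 and 9.97 in control, 8.72, 9.04 and 7.76 in TACI long, and 6.23 in TACI short replicate 1 with 6.97 and 8.15 in replicates 2 and 3. Control lay above the other 6 libraries, and TACI long and TACI short overlapped. The log2 fold change was -0.28 ± 0.09 with the long isoform (adjusted p = 0.0115, edgeR), -0.67 ± 0.09 with the short isoform (adjusted p = 9.73e-07, edgeR) and -0.39 ± 0.09 between the lines (adjusted p = 0.00073, edgeR). The call with the long isoform was lost without TACI long replicate 3, at -0.22 and an adjusted p of 0.0879.

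TLR6 (ENSG00000174130, hg38 chromosome 4, 38823715 to 38856817, minus strand) passed in no comparison of the main fit. It had 7.83, 8.22 and 7.27 CPM in control, 7.73, 7.83 and 7.39 in TACI long, and 6.82, 7.96 and 7.75 in TACI short, and all groups overlapped. The 95% interval of its log2 fold change was -0.20 to 0.15 with the long isoform and -0.35 to -0.0040 with the short isoform (adjusted p = 0.0694, edgeR). Between the lines the interval ran from -0.33 to 0.02. In the short isoform comparison TLR6 did pass without control replicate 3 (-0.24, adjusted p = 0.0399) and with replicate 1 alone as TACI short (-0.28, adjusted p = 0.0383). With replicate 1 alone it also passed between the lines (-0.27, adjusted p = 0.0416).

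TLR1 over TLR6, in RPKM within a library, was 1.76, 1.75 and 1.83 in control, 1.50, 1.54 and 1.40 in TACI long, and 1.22, 1.16 and 1.40 in TACI short. Control stood apart from both lines, while the lines met at 1.40. TLR10 over TLR1 was 4.29, 4.24 and 4.24 in control, 6.30, 6.08 and 7.09 in TACI long, and 4.71, 3.78 and 3.75 in TACI short. The RNA of the 3 neighbouring genes therefore did not move in 1 proportion. TLR1 and TLR6 are close in sequence: 249 stretches of 50 bases, 5.33% of those of TLR1 and 4.1% of those of TLR6, are the same in both, and the counted exons share 57 bases. Reads from there cannot be given to 1 of the 2 genes with certainty.

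TLR2 (ENSG00000137462, hg38 chromosome 4, 153701500 to 153705699, plus strand), the shared partner of TLR1 and TLR6, split the TACI short replicates. It had 1.39, 2.34 and 2.27 CPM in control and 3.03, 2.24 and 1.25 in TACI long. In TACI short it had 1.19 CPM in replicate 1 and 12.0 and 11.0 in replicates 2 and 3, so that the lowest and the highest library of the series were both TACI short. Pooled, replicates 2 and 3 had 1035 counts and the other 7 libraries 609, a CPM ratio of 5.86 (exact 95% interval 5.30 to 6.49, counting error only). That split was drawn from these data and pools different lines, so the interval is no test of it. Replicate 1 against control had a ratio of 0.597 (0.436 to 0.804). Over all 9 libraries TLR2 did not pass with the short isoform: the log2 fold change was 1.87 with an interval from -0.11 to 3.84 (adjusted p = 0.0884, edgeR). Without replicate 1 it was 2.37 (adjusted p = 0.000418), and with replicate 1 alone it was -0.83 (adjusted p = 0.283). The robust setting of the fit also mattered, since TLR2 passed without it (adjusted p = 0.0148) and in DESeq2 (adjusted p = 0.0292). With the long isoform the value was 0.12, and the interval from -1.93 to 2.17 leaves a wide range. The fit estimates the spread of a gene over all 9 libraries, so this interval also carries the split of the TACI short replicates.

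Most of the 18 myeloid markers split the TACI short replicates as TLR2 did: in 13 of them replicates 2 and 3 both lay above the other 7 libraries. The same held for 4 of 6 fibroblast and epithelial markers, 2 of 8 T and NK cell markers and 1 of 8 B-lineage markers. It held for 0 of 6 plasmacytoid dendritic cell markers. The split was therefore not particular to myeloid markers, and its share over all genes was not counted. TYROBP, a signalling adaptor of myeloid and NK cells, had 0.968 CPM in TACI short replicate 1 and 12.4 and 10.7 in replicates 2 and 3, with 0.87 to 2.98 in the other 6 libraries. ITGAM, an integrin of myeloid cells, had 3.44 CPM against 23.4 and 23.5, with 2.15 to 5.48 in the other 6. FCER1G, an Fc receptor subunit, had 2.43 CPM against 26.4 and 24.8, with 3.41 to 6.95 in the other 6. Of the 18 myeloid markers on the list, 10 were tested. With the short isoform 5 were called higher and 1 lower, where 31.5% of all tested genes were called higher and 31.1% lower. The lower one was MS4A7, with at most 5.19 CPM in control, 1.04 to 1.54 in TACI long and 2.81, 4.34 and 4.63 in TACI short. TYROBP and FCER1G were not called (adjusted p = 0.0861 and 0.0997, edgeR). CSF1R gave the most to the sum, with 20.3 CPM in replicate 1 and 57.8 and 56.7 in replicates 2 and 3. It had 3.85 to 8.72 CPM in control and 5.61 to 11.4 in TACI long, so replicate 1 also lay above all of those libraries. The macrophage genes C1QB and C1QC and the granulocyte and monocyte gene S100A8 had no count in any library, and C1QA had 1 count in all. The part of these transcripts in the TLR2 values was not tested.

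**Figure D3:**
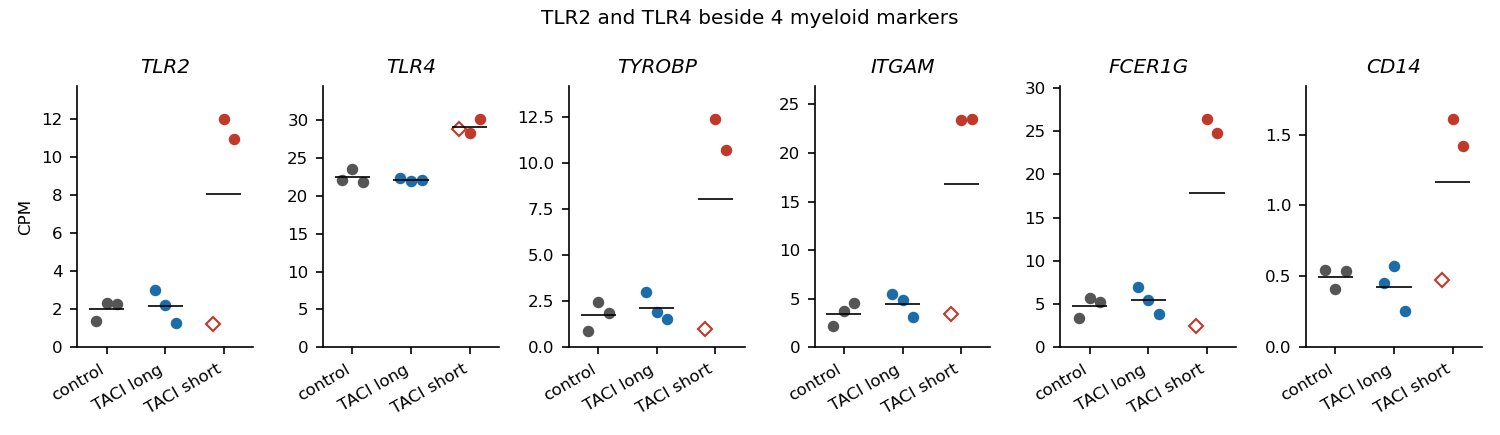
CPM of TLR2, TLR4 and 4 myeloid markers in each library (points) with the group mean (line), each panel on its own linear axis from 0. The open diamond is TACI short replicate 1. TLR2, TYROBP, ITGAM, FCER1G and CD14 are high in TACI short replicates 2 and 3 but not in replicate 1, while TLR4 has 28.4 to 30.2 CPM in all 3 TACI short libraries.

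The endosomal receptors had few counts in every library. For TLR9 this need not mean little RNA, because most of its counted exon bases are shared with another gene. TLR7 (ENSG00000196664, hg38 chromosome X, 12867083 to 12890380, plus strand), a receptor for single-stranded RNA, had 0.609, 0.482 and 0.600 CPM in control, 0.874, 1.03 and 0.649 in TACI long, and 1.06 in TACI short replicate 1 with 1.12 and 1.10 in replicates 2 and 3. The values rest on 77, 112 and 147 counts over the 3 groups. TACI long and TACI short both lay above control without overlap. TLR7 rose by 0.82 ± 0.24 on the log2 scale with the short isoform (adjusted p = 0.00543, edgeR), and with replicate 1 alone the value was 0.81 (adjusted p = 0.0446). With the long isoform it rose by 0.59 ± 0.25 at an adjusted p of 0.0486 in edgeR. That call lay at the threshold and was lost in DESeq2 (adjusted p = 0.141), in limma-voom (adjusted p = 0.0566), with the replicate number as a block (adjusted p = 0.0686) and in 7 of the 9 fits that leave out 1 library. The lines differed by 0.23 with an interval from -0.26 to 0.71 (adjusted p = 0.396, edgeR).

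TLR8 (ENSG00000101916, hg38 chromosome X, 12906620 to 12923169, plus strand), a second receptor for single-stranded RNA that is typical of myeloid cells, was close to undetected. It had 0, 1 and 1 counts in control, 1 in each TACI long library, and 0, 7 and 4 counts in TACI short replicates 1, 2 and 3. A count of 0 in replicate 1 allows up to 0.0675 CPM. Replicates 2 and 3 together against the other 7 libraries gave a CPM ratio of 7.59 (exact 95% interval 2.43 to 27.9, counting error only). That split was drawn from these data and pools different lines, so the interval is no test of it. The TLR8 counts were highest in the 2 libraries where TLR2 and most myeloid markers were highest. TACI short against control gave a ratio of 5.56 (1.21 to 51.6). For TACI short against TACI long the ratio of 3.56 had an interval from 0.941 to 19.9, and a difference was not detectable at this depth.

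TLR9 (ENSG00000239732, hg38 chromosome 3, 52221080 to 52226163, minus strand), the receptor for unmethylated CpG DNA and a well known receptor of B cells, was counted at 0.717, 0.367 and 0.729 CPM in control, 0.780, 0.965 and 1.67 in TACI long, and 0.653 in TACI short replicate 1 with 0.422 and 0.300 in replicates 2 and 3. TACI long lay above the other 6 libraries, and control and TACI short overlapped. These are 15 to 72 counts per library. TLR9 rose by 0.91 ± 0.35 on the log2 scale with the long isoform (adjusted p = 0.0392, edgeR). That call was lost in DESeq2 (adjusted p = 0.0666), in limma-voom (adjusted p = 0.0704), in a fit that is not robust (adjusted p = 0.0581) and without TACI long replicate 3, at 0.52 and an adjusted p of 0.256. It was also lost without control replicate 2 (0.65, adjusted p = 0.149), control replicate 3 (1.06, adjusted p = 0.0525) or TACI short replicate 2 (0.92, adjusted p = 0.0618). TACI short was below TACI long by 1.44 ± 0.36 (log2 fold change -1.44, adjusted p = 0.00193, edgeR), and with replicate 1 alone as TACI short the value was -0.90 (adjusted p = 0.0847). With the short isoform against control TLR9 did not pass, at -0.53 with an interval from -1.33 to 0.26. Without TACI short replicate 1 it did, at -0.92 and an adjusted p of 0.0447.

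The counted exons of TLR9 overlap another gene. Of 3870 counted exon bases, 3341 (86.3%) also belong to a second gene on the same strand, ENSG00000173366, which had 0 to 4 counts per library. No more than 4 TLR9 counts in any library can therefore have been credited to both genes. How reads that fall in 2 genes were treated is not given in the sources used here, and the effect on the TLR9 values was not tested. Of the 529 unshared bases, 528 form a block from 52225636 to 52226163 at the 5′ end of the counted gene, of which 10 bases lie inside TLR9 as RefSeq annotates it. If every count came from the unshared bases, the level would be 1.14 RPKM in control, 2.15 in TACI long and 0.866 in TACI short, in place of 0.156, 0.294 and 0.118 over the whole length.

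**Figure D4:**
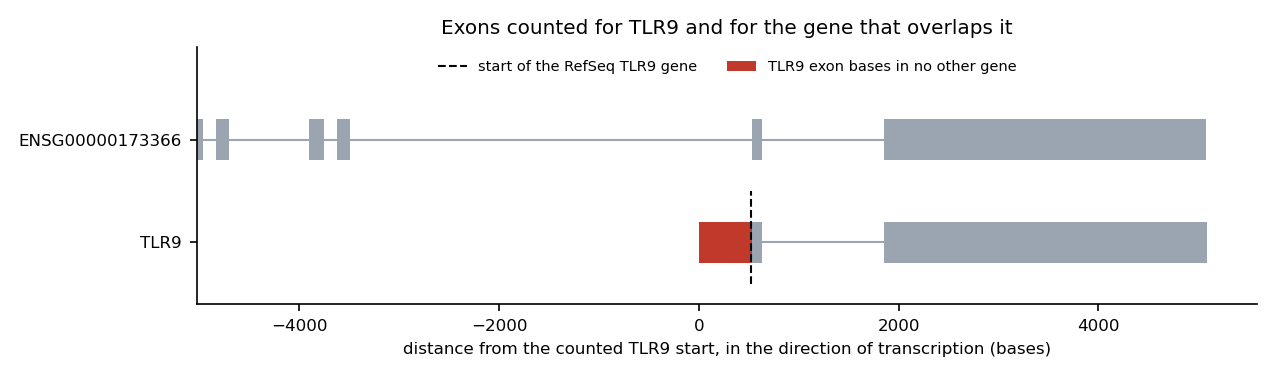
Exons counted for TLR9 and for the overlapping gene ENSG00000173366, drawn to scale along the distance in bases from the counted TLR9 start in the direction of transcription. Red marks the block of 528 TLR9 bases that belong to no other gene, and the dashed line the start of TLR9 in RefSeq. The red block ends within 10 bases of that start, and the remaining TLR9 exons are shared apart from 1 base.

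The RefSeq promoter window of TLR9 lies mostly in this unshared block, and is shown for that position. A read wholly in shared bases lies in both genes alike. ENSG00000173366 had 0 to 4 counts per library, where TLR9 had 15 to 72. Unless shared reads were given to TLR9 alone, nearly all TLR9 counts thus came from reads touching unshared bases. Of the 528-base block only 10 bases lie inside RefSeq TLR9. Whether the TLR9 calls hold for the RefSeq transcript was not tested. The promoter window held the octamer motif once on the plus strand of the gene and the ETS/PU.1 motif once on the other strand. Each is shown with 11 bases on both sides and the match in capitals (GRCh38.p14, minus strand, chr3:52225728-52225757 and chr3:52225636-52225665).
TLR9 octamer: gccatttgactATGCAAATggcctttgact
TLR9 ETS/PU.1: ataaaaatcttACTTCCTCtattctctgag
The remaining human receptors of the family, named after their values were seen, had few counts too. TLR3 had 0 to 8 counts per library, and TLR5 had none in 7 libraries with 2 and 3 counts in TACI short replicates 2 and 3.

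**Figure D5:**
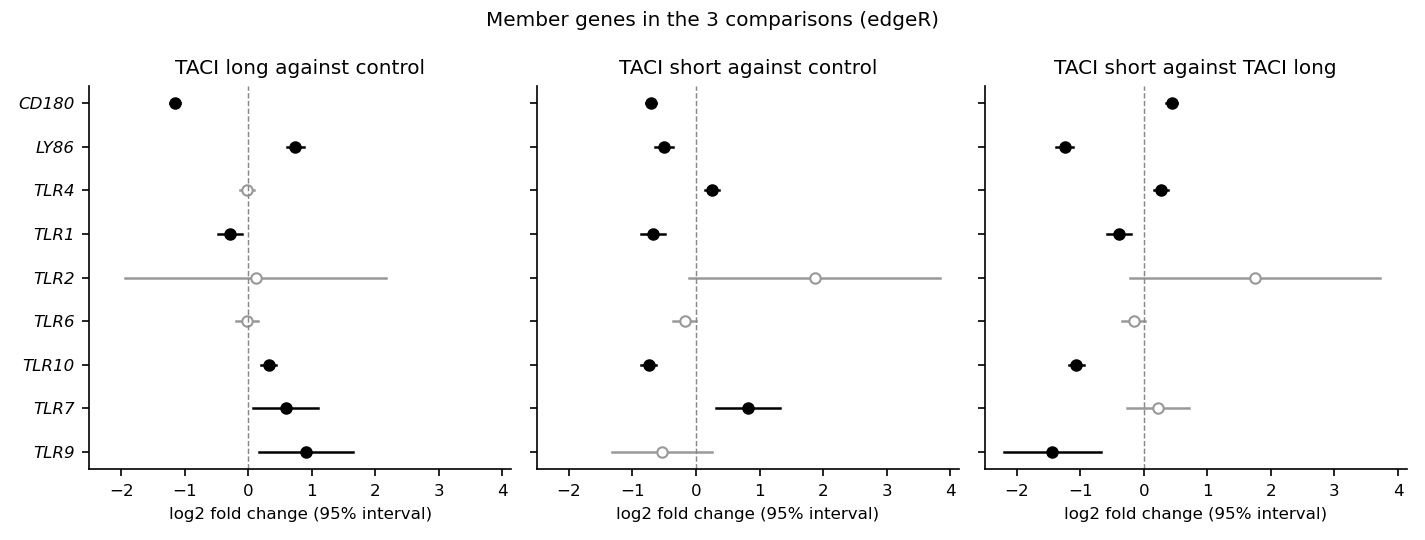
Log2 fold change (x axis) of the 9 tested members in the 3 comparisons, with 95% intervals from the edgeR fit (lines). Filled black points passed at an adjusted p under 0.05 and open grey points did not. CD180 and LY86 lie on opposite sides of 0 with the long isoform (-1.15 and 0.74) and on the same side with the short isoform (-0.71 and -0.51), and the TLR2 intervals are the widest.

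Among the genes that fold Toll-like receptors and carry them to their compartments, the chaperone genes HSP90B1 and CNPY3 rose with the long isoform and fell with the short isoform. Of 12 trafficking and processing genes, all tested, 5 rose and 3 fell with the long isoform, 2 rose and 4 fell with the short isoform, and 6 were higher and 4 lower in TACI short than in TACI long. Their median log2 fold changes were 0.12, 0.08 and 0.22. Over all tested genes 51.1%, 62.6% and 68.8% were called in either direction in these 3 comparisons. Among the 12, the cathepsin genes CTSB and CTSL, named after their values were seen, split as most myeloid markers did. CTSB had 16.5 CPM in TACI short replicate 1 and 56.6 and 52.4 in replicates 2 and 3. CTSL had 4.73 CPM in replicate 1 and 58.2 and 54.3 in replicates 2 and 3, and was not called with the short isoform. In CTSS, UNC93B1 and TASL replicates 2 and 3 also lay above every other library, by less. The part of myeloid transcripts in these genes was not tested. HSP90B1 (gp96), the chaperone that folds Toll-like receptors, had 477 to 487 CPM in control, 747 to 768 in TACI long and 339 to 368 in TACI short. It rose by 0.65 and fell by 0.56 on the log2 scale with the long and the short isoform (adjusted p = 2.01e-12 and 2.02e-11, edgeR). CNPY3, a co-chaperone of gp96 for these receptors, went the same ways, from 49.1 to 51.7 CPM in control to 61.8 to 62.6 in TACI long and 31.5 to 34.8 in TACI short. CNPY4, of the same family, fell by 0.43 with the long isoform (adjusted p = 0.000378, edgeR), did not pass with the short isoform (0.11), and was higher by 0.54 in TACI short than in TACI long. With upper-quartile factors and with column totals alone CNPY4 did pass with the short isoform (0.19 and 0.24, adjusted p = 0.0444 and 0.0148).

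UNC93B1, the protein that escorts the endosomal receptors and named here after its values were seen, had 27.4 to 29.9 CPM in control. It had 29.3 to 31.0 in TACI long, and 27.5 in TACI short replicate 1 with 32.3 and 33.8 in replicates 2 and 3. UNC93B1 passed in no comparison (adjusted p = 0.456, 0.764 and 0.235, edgeR). TASL, which links the lysosomal transporter SLC15A4 to IRF5, had 0.482 to 0.922 CPM in control, 1.55 to 2.32 in TACI long and 3.2 to 3.61 in TACI short. It rose by 1.38 with the long and by 2.06 with the short isoform on the log2 scale (adjusted p = 7.18e-06 and 9.84e-09, edgeR). SLC15A4 itself fell in both lines, from 80.6 to 85.8 CPM in control to 56.8 to 58.6 in TACI long and 74.7 to 75.8 in TACI short.

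Of 20 adaptor and signalling genes, 17 were tested. With the long isoform 6 rose and 3 fell, with the short isoform 5 rose and 5 fell, and in TACI short against TACI long 5 were higher and 6 lower. The medians were 0.12, 0.05 and -0.03. Over all tested genes 51.1%, 62.6% and 68.8% were called in either direction. Among the list genes that rose with the short isoform was IRAK3, an inhibitory kinase named after its values were seen. It had 0.36 CPM in TACI short replicate 1 and 1.02 and 1.26 in replicates 2 and 3, as in the split of most myeloid markers. IRAK2 (0.338 against 3.22 and 3.36 CPM) and TICAM1 (0.293 against 1.61 and 1.40 CPM) split likewise and were not called with the short isoform. MYD88, the adaptor that most of these receptors share, had 86.0 to 87.7 CPM in control, 104 to 105 in TACI long and 56.0 to 58.2 in TACI short. It rose by 0.27 and fell by 0.73 on the log2 scale (adjusted p = 6.28e-06 and 3.95e-13, edgeR). IRAK1, the kinase recruited by MyD88 complexes, fell by 0.62 with the short isoform. Its rise of 0.12 with the long isoform (adjusted p = 0.0257) was lost without any 1 of the control libraries, without TACI long replicate 1 or 3 and without a filter on low counts, at adjusted p from 0.0686 to 0.22. IRF5 and TRAF3 had the opposite signs. IRF5, a transcription factor downstream of TLR7 and TLR9, had 5.42 to 6.48 CPM in control, 4.32 to 5.35 in TACI long and 11.3 to 13.1 in TACI short. It rose by 0.90 with the short isoform, while its fall of 0.32 with the long isoform was lost without control replicate 2 (-0.26, adjusted p = 0.0659) or TACI long replicate 2 (-0.24, adjusted p = 0.0864). TRAF3 fell by 0.21 with the long isoform and rose by 0.76 with the short isoform.

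TIRAP, which bridges TLR2 and TLR4 to MyD88, had 1.30, 1.19 and 1.24 CPM in control, and 0.26, 0.0658 and 0.0463 in TACI long. In TACI short it had 0.54 CPM in replicate 1 and 1.14 and 1.10 in replicates 2 and 3. It fell by 3.32 ± 0.44 on the log2 scale with the long isoform (adjusted p = 1.02e-05, edgeR) and did not pass with the short isoform (-0.56, adjusted p = 0.162). With replicate 1 alone as TACI short it did pass, at -1.29 and an adjusted p of 0.00808. PIK3AP1 (BCAP), a B-cell adaptor that restrains Toll-like receptor signalling, rose by 0.29 with the long isoform and fell by 0.28 with the short isoform.

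RP105 signals in B cells through LYN and VAV proteins, and most of the 9 genes of that list fell with the long isoform. There 1 rose and 6 fell, where 25.2% of all tested genes were called higher and 25.9% lower. With the short isoform 4 rose and 5 fell, where 31.5% of all tested genes were called higher and 31.1% lower. TACI short against TACI long had 3 higher and 4 lower, where the shares were 35.2% and 33.6%. The medians of the list were -0.19, -0.26 and -0.09. PRKCB, named after its values were seen, was 1 of the 4 list genes that rose with the short isoform. It had 0.698 CPM in TACI short replicate 1 and 3.72 and 3.28 in replicates 2 and 3, again as in the split of most myeloid markers. LYN, the Src family kinase of this pathway, had 143 to 146 CPM in control, 94.5 to 98.0 in TACI long and 94.9 to 102 in TACI short. It fell by 0.58 and by 0.67 on the log2 scale with the long and the short isoform (adjusted p = 2.83e-11 and 1.47e-12, edgeR). Between the lines LYN differed by -0.09 (adjusted p = 0.0579, edgeR), and the sign turned to 0.04 with column totals alone, while DESeq2 (adjusted p = 0.0171) and limma-voom (adjusted p = 0.0405) called it lower. VAV1 fell by 0.49 with the short isoform. Its fall of 0.13 with the long isoform was lost without control replicate 1 or 3, without any 1 of the TACI long libraries and without a filter on low counts, at adjusted p from 0.0509 to 0.101. VAV2, named after its values were seen, rose by 0.27 with the short isoform (adjusted p = 5.72e-05, edgeR). FYN, a related kinase, fell by 0.47 with the long isoform and rose by 0.99 with the short isoform.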

How the data were processed

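Polyadenylated RNA of 9 samples was turned into libraries with Nextera XT, an unstranded kit, per the labels' protocols. Per the submitters' processing notes FastQC, STAR 2.4.0h, HTSeq and build hg38 were used. The authors deposited raw counts per Ensembl gene with exon positions and lengths, in a featureCounts column layout. Annotation release and the strand setting are not given in the sources used here. Symbols came from a gene name table (56410 of 57500 identifiers matched), and GENCODE 29 held 56898 of the 57500. No library copied another: chi-square over degrees of freedom was 2.45 to 18.2 within groups.

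CPM is count over column total. The 16672 genes passing filterByExpr (minimum count 10, minimum total 15) entered 1 fit of the 9 libraries with TMM factors, by the quasi-likelihood test with robust dispersion in edgeR 4.0.16 (R 4.3.3). The fit had 6 residual degrees of freedom and a common biological coefficient of variation of 0.0792. The call threshold was 0.05 after Benjamini-Hochberg adjustment. Standard errors are the absolute log2 fold change over the square root of F. Ratios of few counts carry exact 95% intervals, which cover counting error only. The script was tested on simulated data.

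Alternatives were limma-voom (limma 3.58.1), the Wald test and the size factors of DESeq2 1.42.0, upper-quartile factors, column totals alone, other filters, the groups compared alone, a fit that is not robust, the replicate number as a block, each library left out, and TACI short as replicate 1 alone. The members and lists were chosen with earlier results of these data known. Named genes are the members, TNFRSF13B, up to 4 called genes per list and comparison, the 3 genes most like each member at 1 CPM or more, chromosome neighbours and overlapping genes. Some genes that this rule names are not reported here. Protein sequences were not used here.

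Replicate numbers are shared between groups. The deviations of same-numbered control and TACI short libraries from their group means correlated at 0.43, 0.21 and 0.18, but control replicate 3 with TACI short replicate 2 also reached 0.23. For control and TACI long the values were -0.12, 0.07 and -0.11, and for TACI long and TACI short -0.27, 0.11 and -0.26.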

Additional observations from a re-analysis of the deposited data

Results flagged for a closer look

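Among the members, 2 moved in opposite directions in the 2 lines, with calls on both sides and a tested difference between the lines. The share of all tested genes with such opposite calls was not counted, so it is not known whether 2 is many. In either direction 51.1% of tested genes were called with the long isoform and 62.6% with the short isoform. HSP90B1, CNPY3, MYD88 and PIK3AP1, which are not members, also rose with the long isoform and fell with the short isoform. TLR10 rose with the long isoform and fell with the short isoform, and its log2 fold change for TACI short against TACI long was -1.06 (adjusted p = 1.11e-13, edgeR). LY86 did the same, at -1.25 (adjusted p = 5.01e-13, edgeR). In both genes the 3 TACI long libraries lay above and the 3 TACI short libraries below all 3 control libraries. With replicate 1 alone as TACI short, a library assumed to vary like the other groups, the log2 fold change against control was -0.68 for TLR10 and -0.51 for LY86. Isoform and amount of transgene RNA cannot be told apart here.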

How the results depend on the processing

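The count of members called stayed within 1.5 times its main value under every alternative run. Leaving out 1 library gave 4 to 6 members called with the long isoform, 6 to 8 with the short isoform and 6 to 7 for short against long, and 7308 to 9142, 9647 to 11588 and 10786 to 12661 genes called. Among member values under alternatives, 498 kept direction and side of the threshold, 20 lost a call, 10 gained one and 9 turned sign. The calls of CD180, LY86 and TLR10 in all 3 comparisons, and of TLR4 and TLR1 with the short isoform, were among those kept throughout. The replicate block changed 1 member call (TLR7 with the long isoform, 0.58, adjusted p = 0.0686) and gave 8620, 10501 and 11495 genes called, against 8518, 10435 and 11474 without it.

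Sign turned for small or uncalled values. Over the fits that leave out 1 library, the long isoform value ranged from -0.20 to 0.39 for TLR2, -0.046 to 0.0071 for TLR4, -0.069 to 0.014 for TLR6 and -0.48 to 0.032 for CD14. With replicate 1 alone as TACI short, TLR2 was -0.83 against control and -0.96 against TACI long, TLR9 was 0.012 and CD14 -0.17 against control. For short against long, LYN was 0.00073 with upper-quartile factors and 0.042 with column totals alone, and TAB2 was 0.00063 with column totals alone. Column totals alone moved the median of all genes by 0.13 in both comparisons with TACI short. Depth limits TLR7, TLR8 and TLR9, which had at most 72 counts in a library. The cause of these changes was not tested.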

Other observations

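Some genes next to the members on the chromosomes moved in the direction of the member and others did not. Beside TLR2, RNF175, 4.43 kb away, rose by 1.12 on the log2 scale with the long isoform and by 2.02 with the short isoform. Beside TLR9, ENSG00000280003, 2.07 kb away, rose by 1.41 on the log2 scale with the long isoform and fell by 0.77 with the short isoform, and TWF2, an actin-binding gene 2.45 kb away on the other side, rose by 0.22 and fell by 0.17. Beside CD180, the kinase gene MAST4 fell by 0.54 with the long isoform and rose by 1.10 with the short isoform, whereas CD180 fell with both. F13A1, a coagulation factor subunit gene 267 kb from LY86, rose by 2.15 with the long isoform and did not pass with the short isoform (0.34, adjusted p = 0.251, edgeR). KLF3, on one side of the TLR10, TLR1 and TLR6 cluster, passed in no comparison. TMEM156, on its other side, rose by 0.17 with the short isoform, where TLR10 and TLR1 fell. PRPS2, on one side of TLR7 and TLR8, rose by 0.34 with the long isoform and by 0.36 with the short isoform. TMSB4X, on their other side, did not pass with the long isoform (-0.08) and rose by 0.62 with the short isoform.

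Over the 9 libraries, which share their 3 groups, some genes had log2 CPM profiles very like those of a member, among 10986 protein-coding genes at 1 CPM or more. For CD180 they included DUSP2, a MAP kinase phosphatase (Pearson r = 0.998), and ID3, an inhibitor of E proteins (0.997). DUSP2 had mean values of 232, 50.6 and 100.3 CPM in control, TACI long and TACI short, and ID3 141, 38.7 and 73.0. For LY86 the closest was INO80C (0.997), for TLR10 TMEM9B (0.999), for TLR1 BLZF1 (0.98), for TLR4 SNUPN (0.978) and for TLR6 ZFYVE16 (0.933). For TLR2 they included the calcium-binding protein gene S100A4 (0.997), which had 1.10 CPM in TACI short replicate 1 where its TACI short mean was 5.82. With 3 groups of 3 libraries, such values are a description of group levels.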
